A study of Mus musculus with 3 samples.

Results

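Sall1, Sall3 and Sall4 encode zinc finger proteins of the spalt family, and Lhx2 and Lhx9 encode LIM-homeodomain proteins. Around these 5 genes, out of 22380 protein-coding genes, the lists of peaks from E12.5 mouse distal forelimb hold 33 of 20479 RNAP2 peaks and 19 of 10634 Med12 peaks. The 5 genes were chosen by name, with no threshold on a peak or score, but with earlier results of these data known. A peak was counted for a gene if it overlapped the gene or came within 200 kb of its start, an interval of 400001 bp for each gene that is called its neighbourhood here. The start is the 5′ end of the gene in the GENCODE annotation of mm9, a peak within 1 kb of it was taken as a peak at the start, and a peak with no annotated transcript start of any gene within 1 kb was called distal.

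Chromatin came from fixed single-cell suspensions of distal forelimbs of mouse embryos, and 1 library was sequenced for RNAP2, 1 for Med12, a subunit of the Mediator complex, and 1 for the input. The labels name no treatment, strain or genotype and do not say how many embryos were combined. They give E12.5 for all 3 samples, and the text that accompanies the series names an earlier stage. Each antibody has 1 library, so no value below has a replicate error and no test between conditions was possible. The lists give a position and a score for each peak and no read counts, so the depth behind a peak is unknown. The score is 10 times the negative log10 of the peak caller's p-value. It depends on the depth of the library and the width of the peak, and it was compared within a list and not between lists. Both lists reach down to a score of 40.0, and weaker sites are not listed. The p-value threshold in the methods corresponds to a score of 50, so peaks between 40.0 and 50 are below it, and why they are listed is not known. A peak in such a library does not tell binding in a few cells from weak binding in many.

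SALL proteins act mostly as transcriptional repressors through the NuRD chromatin complex, and mutations in human SALL1 and SALL4 cause malformation syndromes that include the thumb and radial side of the arm. Lhx2 and Lhx9 are vertebrate relatives of the fly wing gene apterous and are expressed in the distal mesenchyme of the limb bud, where with the related Lmx1b they are required for the mesenchyme to respond to FGF from the apical ridge and to maintain Shh. RNAP2 marks transcribed promoters and gene bodies, and its binding together with Mediator away from promoters is a feature of active enhancers. The study combined RNAP2, Med12 and other marks to look for limb enhancers.

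The tissue label was checked at the starts of marker genes. RNAP2 peaks were present at 4 of 4 starts of distal limb mesenchyme genes (Hoxa13, Hoxd13, Prrx1 and Msx1) and at that of the forelimb gene Tbx5, with scores from 1726 to 3100. Of the hindlimb genes, Pitx1 had a peak with a score of 99.3 and Tbx4 had none. No RNAP2 peak was found at the starts of 3 ectoderm genes (Epcam, Krt5 and Trp63), 2 muscle genes (Myod1 and Myf5) and 2 neuronal genes (Neurod1 and Olig2). Markers of other cells with a peak were Kdr, 1 of 3 endothelial genes, with a score of 148, and Tal1, 1 of 2 blood genes, with a score of 205. The part of such cells in the results below was not tested.

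The 5 genes differed in where RNAP2 lay. The start of Sall1, Sall3 and Lhx9 had an RNAP2 peak, Lhx2 had its highest peak at an internal start, and Sall4 had no peak of either protein in the gene. An RNAP2 peak at the start was thus found for 3 of 5 genes, against 40.0% of all protein-coding genes, and at any annotated transcript start for 4 of 5, against 42.2%. A Med12 peak at the start was found for 1 of 5, Sall1, against 8.20% of all genes, and at any transcript start also for 1 of 5, against 9.37%. Sall1 was the only one of the 5 with both proteins at the start, as in 7.58% of all genes. With 5 genes, 1 gene more or less decides how these counts stand to the background.

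**Figure D1:**
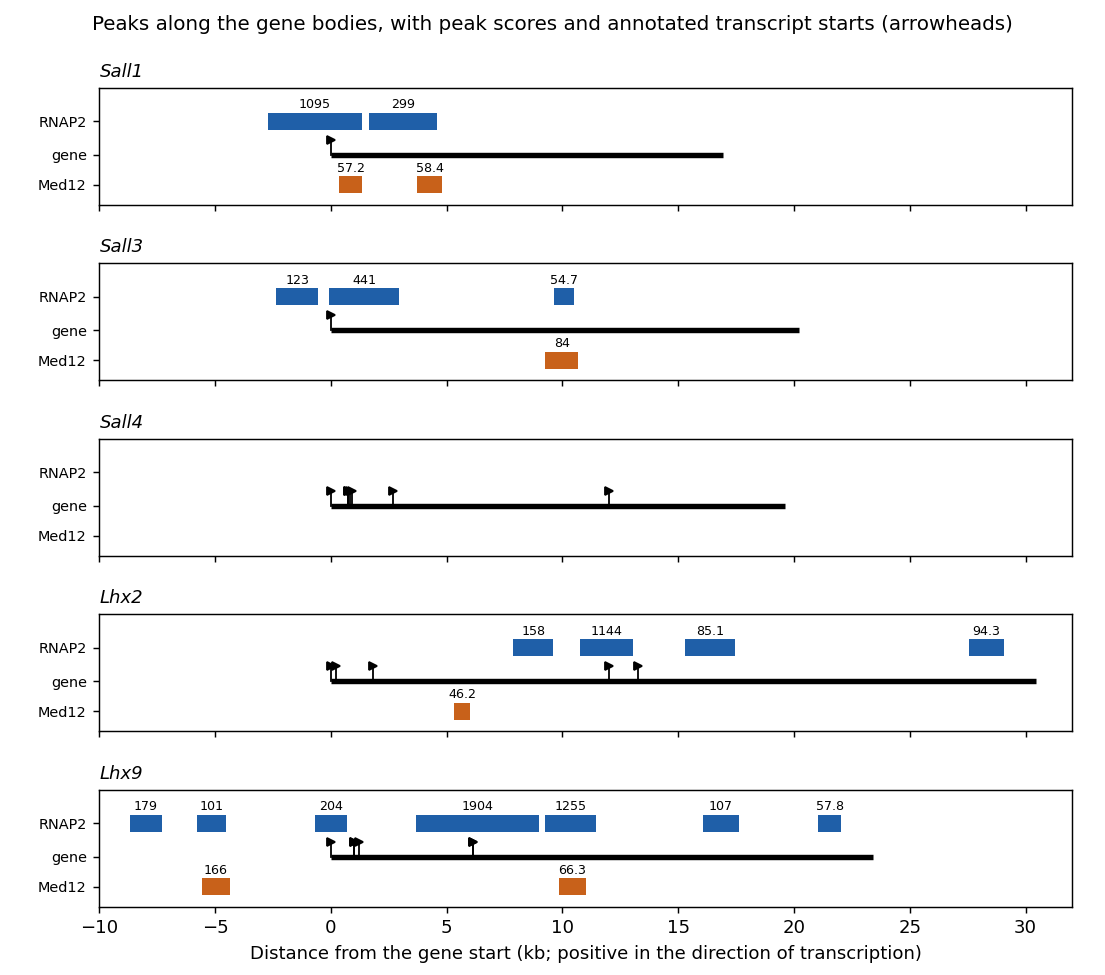
Position along each gene (kb from the gene start, positive in the direction of transcription) of RNAP2 peaks (blue, above the gene) and Med12 peaks (orange, below), with the peak score above each and arrowheads at annotated transcript starts. RNAP2 covers the start of Sall1 and Sall3, lies at an internal start of Lhx2 and along much of Lhx9, and Sall4 has no peak.

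Sall1, the spalt gene that with Sall3 is needed for normal digits in the mouse, is transcribed from position 91568061 of chromosome 8 and is 16915 bp long. The start was covered by RNAP2 over 4053 bp (91566735 to 91570787, score 1095). It ranked 1800 of 20479 in the list, and 0.920% of protein-coding genes had a peak as wide at the start. The median width was 1494 bp over coding starts with a peak. A Med12 peak with a score of 57.2 overlapped it from 91566714 to 91567695, 366 bp inside the gene. A gap of 318 bp separated it from a second RNAP2 peak in an intron (91563469 to 91566416, score 299), which overlapped a Med12 peak with a score of 58.4. Both RNAP2 peaks together covered 25.3% of the gene.

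Every RNAP2 peak of the Sall1 neighbourhood, 4 of 4, overlapped a Med12 peak. Apart from the peak at the start and that in an intron, they were intergenic sites 64.0 kb upstream and 115.2 kb downstream of the start. The upstream site had an RNAP2 score of 288 (91631366 to 91632802) and a Med12 score of 276 (91631464 to 91632691). This was the highest Med12 score of the 5 neighbourhoods and ranked 317 of 10634 in the list. The downstream site, from 91452174 to 91453476, had scores of 109.6 for RNAP2 and 55.1 for Med12. The remaining Med12 peak, 140.2 kb downstream with a score of 42.3, had no RNAP2 peak. The region holds 1 other annotated protein-coding gene, Gm5356, and Sall1 has the nearest protein-coding transcript start of all 3 distal sites with both proteins. The sequence at the upstream site is shown because it carries the highest Med12 score. It is the 300 bases around the middle of the overlap of both peaks, on the plus strand of mm9 (chr8:91631928-91632227), and contains 9 CpG dinucleotides and none of the motifs searched below.
Sall1 upstream site: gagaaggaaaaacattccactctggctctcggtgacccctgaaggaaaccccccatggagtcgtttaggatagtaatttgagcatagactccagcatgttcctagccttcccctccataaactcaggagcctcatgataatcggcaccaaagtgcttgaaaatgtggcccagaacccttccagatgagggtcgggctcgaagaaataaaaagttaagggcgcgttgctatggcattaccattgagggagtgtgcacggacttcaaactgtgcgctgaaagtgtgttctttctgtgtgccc

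Sall3, which acts in part redundantly with Sall1 in the limb, starts at 81183317 on chromosome 18 and is 20203 bp long. RNAP2 bound over the start and into the gene in a peak of 3004 bp (81180387 to 81183390, score 441). A second peak with a score of 123 (81183859 to 81185677) lay upstream of the start after a gap of 468 bp. Neither overlapped a Med12 peak, and the nearest Med12 peak was 9264 bp from the start. That Med12 peak, in an intron of Sall3 (81172626 to 81174053, score 84.0), overlapped a weak RNAP2 peak (81172819 to 81173693, score 54.7) and made the only distal site with both proteins in this neighbourhood. The highest RNAP2 peak without Med12 was that at the start of Atp9b, the neighbouring gene, with a score of 569, and a Med12 peak without RNAP2 lay in an intron of Atp9b with a score of 45.5. No peak of either list lay more than 1.5 kb upstream of Sall3 within the neighbourhood, by the centre of the peak.

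Sall4, the spalt gene associated with radial ray defects, extends over 19612 bp of chromosome 2 from a start at 168593443. None of its 7 annotated transcripts, which have 6 starts, had a peak of either list within 1 kb. The nearest RNAP2 peak was 144113 bp from the gene start and the nearest Med12 peak 144295 bp. The other 4 genes had an RNAP2 peak no farther than 7871 bp from the start. The sequence 1 kb on either side of the protein-coding start of Sall4 at 168592701 (Sall4-001) has a ratio of observed to expected CpG of 0.67. At the gene start, that of the non-coding transcript Sall4-007, the ratio is 0.51. The median of that ratio was 0.66 over 8953 coding gene starts with an RNAP2 peak and 0.26 over 13427 without. These medians are for gene starts, and the gene start of Sall4 lies between them. Its coding start, at 0.67, is near the median with RNAP2, and the list has no peak at either start.

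The 4 RNAP2 peaks of the Sall4 neighbourhood were at the starts of other genes in 3 cases. A peak with a score of 169.5 was at the start of Nfatc2, and peaks with scores of 185 and 277 were at starts of Zfp64. Those at Nfatc2 and at the nearer, internal start of Zfp64 overlapped Med12 peaks with scores of 105 and 87.4. The remaining peak, 149.4 kb downstream of the start of Sall4 between Atp9a and Nfatc2 (168443448 to 168444544), had an RNAP2 score of 119.6 and a Med12 score of 60.3. It was the only distal site with both, and its nearest coding start, 16839 bp away, was that of Nfatc2. A Med12 peak with a score of 45.8 in an intron of Nfatc2 had no RNAP2. The sequence of the distal site (plus strand, chr2:168443743-168444042) is given since it is the only one in this neighbourhood, and none of the motifs searched occurs in it.
Sall4 downstream site: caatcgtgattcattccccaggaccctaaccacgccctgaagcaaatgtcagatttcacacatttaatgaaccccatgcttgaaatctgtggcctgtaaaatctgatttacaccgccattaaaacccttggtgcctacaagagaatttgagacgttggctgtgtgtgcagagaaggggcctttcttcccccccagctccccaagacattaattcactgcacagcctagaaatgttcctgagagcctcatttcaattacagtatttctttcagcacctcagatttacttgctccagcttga

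Lhx2 is 30453 bp long on chromosome 2 and has 5 annotated transcript starts. At the 5′-most of them (Lhx2-003, 38194801), no RNAP2 peak was found within 1 kb, and the nearest was 7871 bp away. An internal start (Lhx2-001, 38206828) was covered by RNAP2 (38205558 to 38207838, score 1144), in a peak that ranked 1710 of 20479. A further start, Lhx2-002 at 38208052, was 214 bp from this peak. For Lhx2-005, which starts at 38196612, the nearest was 6060 bp away. Counted from the gene start alone, Lhx2 has no RNAP2 peak, and counted from any of its starts 8.28% of all protein-coding genes have a score as high. Both starts lie in CpG-rich sequence, with a ratio of observed to expected CpG of 0.60 at Lhx2-003 and 0.71 at Lhx2-001. The 200 bases upstream of each are given to set the start without RNAP2 beside the start with it, on the plus strand of mm9 (chr2:38194601-38194800 and chr2:38206628-38206827) and with CpG dinucleotides in capitals. They hold 24 and 16 CpG and have GC contents of 76.5% and 66.5%, so the upstream sequence without RNAP2 is the richer in CpG.
Lhx2-003, no RNAP2 peak: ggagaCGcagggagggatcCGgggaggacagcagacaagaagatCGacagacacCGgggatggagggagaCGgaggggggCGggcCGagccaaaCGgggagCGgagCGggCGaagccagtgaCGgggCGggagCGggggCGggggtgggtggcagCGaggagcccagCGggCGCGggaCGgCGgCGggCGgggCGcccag
Lhx2-001, RNAP2 score 1144: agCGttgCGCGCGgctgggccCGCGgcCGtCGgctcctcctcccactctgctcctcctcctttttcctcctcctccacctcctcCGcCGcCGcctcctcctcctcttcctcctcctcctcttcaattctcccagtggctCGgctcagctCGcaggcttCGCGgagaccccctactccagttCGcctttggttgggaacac

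Within Lhx2, RNAP2 peaks with scores of 158, 85.1 and 94.3 lay 8.7, 16.4 and 28.3 kb downstream of the gene start. Together with the peak at the internal start they covered 25.3% of the gene. None of the 4 overlapped a Med12 peak. The gene contained 1 Med12 peak, which was 683 bp wide and had a score of 46.2. It lay 5.7 kb inside the gene, between the starts without and with RNAP2, and was the highest Med12 peak without RNAP2 in the neighbourhood. The sites with both proteins were far from the gene. The first, from 38017951 to 38019281 in an intron of Dennd1a and 176.2 kb upstream of Lhx2, had scores of 66.9 for RNAP2 and 104 for Med12. The second, from 38356909 to 38357983, was 162.6 kb downstream and 9717 bp from the nearest coding start, that of Nek6, and had scores of 63.9 and 48.5. The other RNAP2 peaks of the neighbourhood were at annotated starts of Dennd1a (scores of 114 and 219) and Nek6 (scores of 113 and 127). The sequence at the Dennd1a site (plus strand, chr2:38018530-38018829) is shown as the site with the highest Med12 score near Lhx2. It has none of the motifs searched.
Lhx2 upstream site in Dennd1a: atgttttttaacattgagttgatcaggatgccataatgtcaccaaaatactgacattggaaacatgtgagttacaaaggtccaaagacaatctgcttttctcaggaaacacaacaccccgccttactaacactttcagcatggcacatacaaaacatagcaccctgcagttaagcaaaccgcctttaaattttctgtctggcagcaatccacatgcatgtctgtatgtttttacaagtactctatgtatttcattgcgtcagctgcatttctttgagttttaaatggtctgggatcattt

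Lhx9, on chromosome 1 with its 5′-most start at 140745153, had the highest RNAP2 scores of the 5 genes. The peak at the gene start (140744440 to 140745842) had a score of 204. The internal starts of Lhx9-003 (140739034) and Lhx9-005 (140739006) lay in a peak 5327 bp wide (140736170 to 140741496, score 1904), which ranked 824 of 20479. By the highest score at any start, 3.99% of protein-coding genes had one as high. This peak was followed after 262 bp by a peak in an intron with a score of 1255, and farther in the gene by peaks with scores of 107 and 57.8. These 5 peaks covered 46.1% of the 23391 bp of Lhx9, and 2.80% of protein-coding genes had a share as large. In both Lhx genes the RNAP2 score was thus higher at an internal start than at the gene start.

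Lhx9 had 3 Med12 peaks in its neighbourhood, and all 3 overlapped an RNAP2 peak at a distal site. In the gene, the RNAP2 peak with a score of 1255 (140733712 to 140735907) overlapped a Med12 peak with a score of 66.3. The site with the highest Med12 score, 166, lay 5.2 kb upstream of Lhx9 in the adjacent gene 2310009B15Rik (140749700 to 140750952, RNAP2 score 101). An intergenic site 174.2 kb downstream had scores of 137 for RNAP2 and 142 for Med12, and its nearest coding start was that of Nek7, 54719 bp away. Outside the gene, RNAP2 peaks without Med12 and away from starts lay 63.1 kb downstream (score 98.8) and 16.0 kb upstream (score 147), and peaks at the starts of 2310009B15Rik and Dennd1b had scores of 179 and 142. The sequence of the upstream site is given on the plus strand (chr1:140750072-140750371) since it has the highest Med12 score near Lhx9. It overlaps an annotated exon and holds none of the motifs searched.
Lhx9 upstream site in 2310009B15Rik: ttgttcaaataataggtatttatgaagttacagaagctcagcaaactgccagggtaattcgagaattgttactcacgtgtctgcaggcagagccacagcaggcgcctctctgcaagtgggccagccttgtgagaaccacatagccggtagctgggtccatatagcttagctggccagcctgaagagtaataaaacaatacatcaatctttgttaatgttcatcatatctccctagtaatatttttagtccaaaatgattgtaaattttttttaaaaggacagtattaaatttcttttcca

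**Figure D2:**
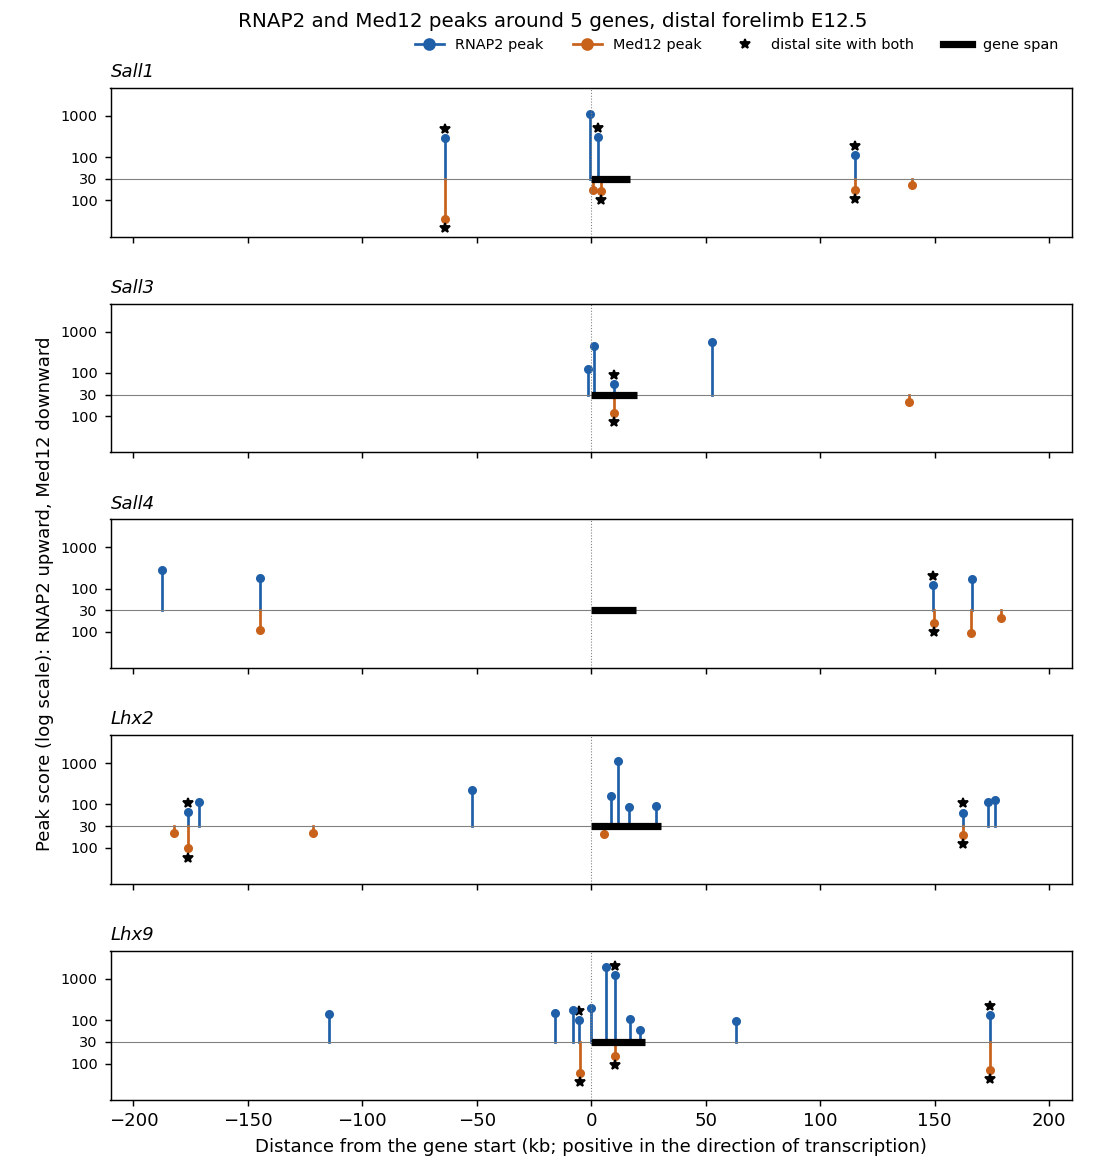
RNAP2 peaks (blue, upward) and Med12 peaks (orange, downward) by distance of the peak centre from the gene start (kb, positive in the direction of transcription), with the score on a log axis that begins at 30 in both directions. Stars mark distal sites with both proteins, and the black bar is the gene. Sall1, Sall3 and Lhx9 have a site with both inside the gene, whereas the nearest such site is 149.4 kb from the start of Sall4 and 162.6 kb from that of Lhx2.

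Across the 5 neighbourhoods, 10 RNAP2 peaks were distal sites with both proteins, with 3 near Sall1, 3 near Lhx9, 2 near Lhx2 and 1 each near Sall3 and Sall4. Every one of the 5 genes thus had at least 1 such site, against 22.8% of all protein-coding genes. The count of 5 fell to 3 with 100 kb around the start, where Sall4 and Lhx2 had none. It fell to 2 (Sall1 and Lhx9) with a score of at least 100 for both proteins. The share of all genes was not computed at these settings, so 22.8% is no background for the counts of 3 and 2. Within 200 kb and with no score minimum, a number as high as 3 was found for 2.49% of genes. There, 2 or more were found for 6.79%, and the median gene had 0. These shares hold for the limit of 1 kb from a start. With distal set at over 5 kb from any start, Sall1 had 2 sites and Sall3, Sall4, Lhx2 and Lhx9 had 1 each. Of the 10 sites, 5 were intergenic, 3 lay in the gene itself (Sall1, Sall3 and Lhx9) and 2 in another gene. The nearest protein-coding transcript start belonged to the named gene for 5 sites and to a neighbour for the other 5. The lists give no contacts, so which gene a distal site acts on cannot be told from them.

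Of the 33 RNAP2 peaks, 13 were shared with Med12, or 39.4% (95% Wilson interval 24.7 to 56.3%), against 21.7% of the whole RNAP2 list. The share was uneven, with 4 of 4 peaks around Sall1, 3 of 4 around Sall4, 1 of 4 around Sall3, 2 of 10 around Lhx2 and 3 of 11 around Lhx9. Those around Sall4 include peaks at starts of Nfatc2 and Zfp64. In the other direction 13 of 19 Med12 peaks overlapped an RNAP2 peak, or 68.4% (46.0 to 84.6%), against 42.7% of the whole Med12 list. Distal sites with both made up 30.3% of the RNAP2 peaks (17.4 to 47.3%), against 13.0% of the list. The intervals cover counting error only, and peaks of 1 neighbourhood are not independent. Distal peaks as such took similar shares here and in the list, 51.5% (35.2 to 67.5%) and 52.2% for RNAP2 and 84.2% (62.4 to 94.5%) and 80.6% for Med12.

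Among the 16 distal Med12 peaks here, those without RNAP2 all had lower scores than those with it. Over the 10 distal Med12 peaks that overlapped RNAP2, the score ranged from 48.5 to 276 with a median of 75.1, and over the 6 without RNAP2 it ranged from 42.3 to 46.2, so the ranges did not overlap. A Med12 score under 50 was found for 7 of the 19 peaks, or 36.8%, close to the 35.9% of the whole list. These 7 lie below the stated threshold, and they are the 6 distal peaks without RNAP2 and the peak of the shared site downstream of Lhx2. In the whole list the median score was 50.1 for Med12 peaks without RNAP2, distal or at starts, and 90.2 at distal sites with both. The median of 50.1 is above the lowest score of a shared site here, 48.5, so in the whole list the scores overlap. RNAP2 scores did not part in this way, with 54.7 to 1255 (median 115) at the 10 distal sites with Med12 and 57.8 to 158 (median 98.8) at the 7 without. The highest RNAP2 scores were not at the sites with the highest Med12 scores. The RNAP2 peaks at the internal starts of Lhx9 and Lhx2 had no Med12 peak, and the site upstream of Sall1 with the highest Med12 score had the lower RNAP2 score of 288.

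**Figure D3:**
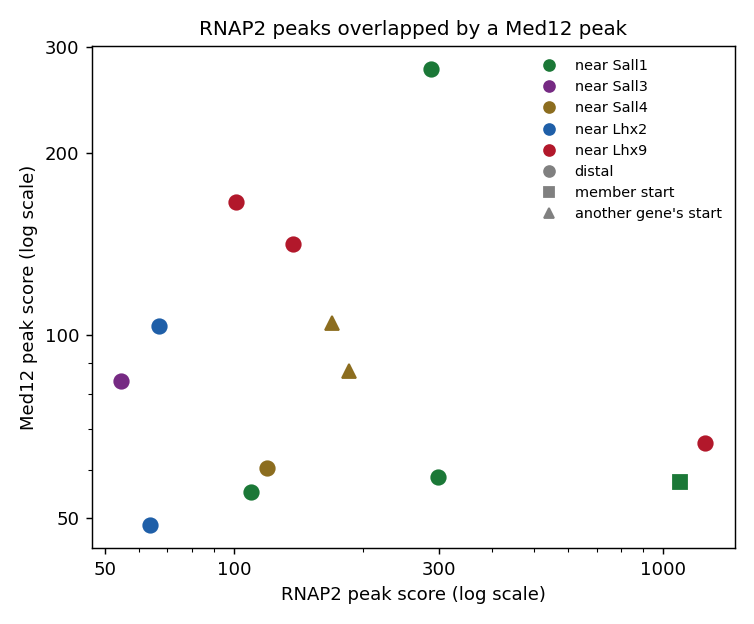
RNAP2 score (x axis, log scale) and Med12 score (y axis, log scale) of the 13 RNAP2 peaks overlapped by a Med12 peak, coloured by the gene of the neighbourhood, with circles for distal sites, a square for the start of Sall1 and triangles for starts of Nfatc2 and Zfp64. The highest Med12 score, 276, is at the site upstream of Sall1, and the highest RNAP2 score, 1255, in Lhx9.

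For RNAP2 there were 4 peaks each around Sall1, Sall3 and Sall4, which is the median over all protein-coding genes, 10 around Lhx2 and 11 around Lhx9. As many RNAP2 peaks as around Lhx9 were found for 14.6% of genes. For Med12 there were 5 peaks around Sall1 and Lhx2, 4 around Sall4, 3 around Lhx9 and 2 around Sall3, where the median gene had 1 and 7.94% of genes had 5 or more. A Med12 peak was present near 5 of 5 genes, against 73.8% of all genes. The next peaks beyond 200 kb lay 1217 bp (Med12, score 128) and 1551 bp (RNAP2, score 56.6) outside the neighbourhood of Lhx2. Within 100 kb of the start Sall4 had no peak of either list. Within 500 kb of the start the numbers of distal sites with both were 7 for Sall3, 4 each for Sall1 and Lhx2, 3 for Lhx9 and 2 for Sall4. The shares of all genes are for 200 kb, and none was computed for 100 or 500 kb.

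**Figure D4:**
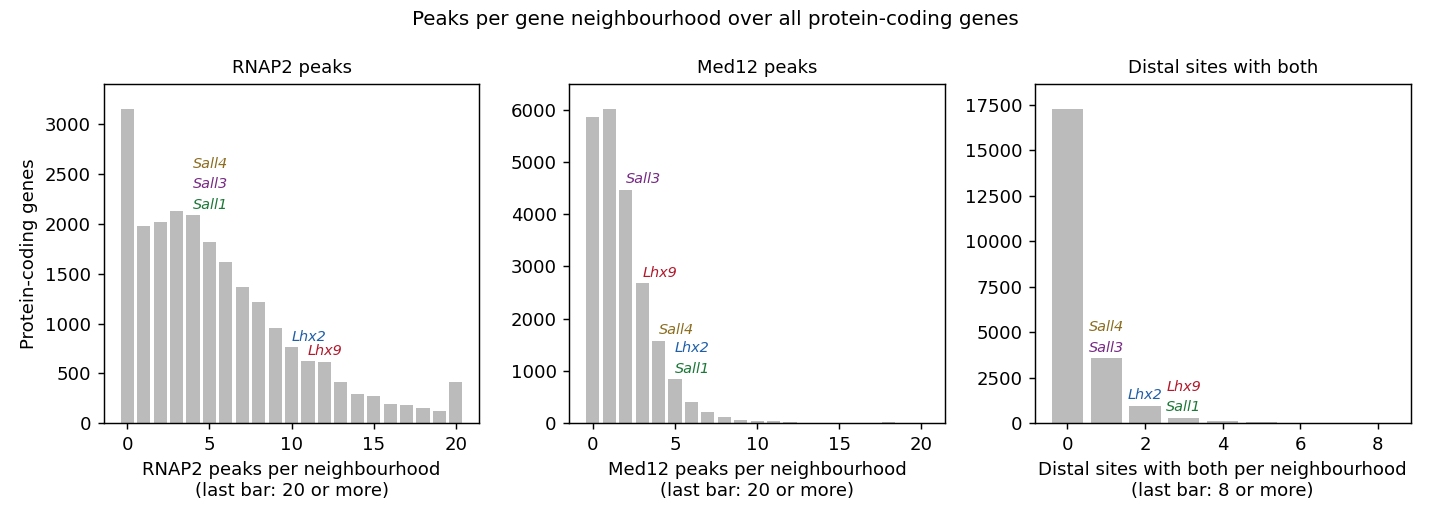
Number of protein-coding genes (y axis) by the number of RNAP2 peaks, Med12 peaks and distal sites with both in the neighbourhood (x axes), with the 5 genes written above the bar they belong to. The 3 Sall genes stand at the median for RNAP2, and all 5 genes have at least 1 distal site with both.

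The 300 bases in the middle of each distal site with both proteins were searched on both strands for TAATTA, the core bound by many homeodomain proteins including LIM-homeodomain ones, CAATAAA of posterior Hox proteins, ACCACCC of Gli proteins and CTTTGAT of Tcf/Lef proteins. TAATTA reads the same on both strands, and none of the 4 contains another. Of the 10 sites, 1 held TAATTA and 0 held any of the others. In the 2669 distal sites with both in the whole list, TAATTA was present in 15.8%, CAATAAA in 15.9%, ACCACCC in 3.71% and CTTTGAT in 6.14%. The counts say only which letters lie in these windows. The GC content of the 10 windows ranged from 38.3% to 54.7%, around the median of 43.0% for all such sites.

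Relatives and partners of these genes were taken from lists written down for this purpose. Sall2, the remaining spalt gene, had no peak at the gene start and an RNAP2 peak with a score of 54.8 at another of its starts. Of 10 other LIM-homeodomain genes, 4 had RNAP2 at the gene start, a share equal to the background of 40.0%. These were Lhx8, a regulator of tooth and forebrain development (score 1362), Isl1, known from hindlimb initiation (1110), Lmx1b, which sets dorsal limb identity (541.5), and Lhx1 (161). Med12 was at the gene start of 1 of the 10, Lmx1b, with a score of 64.3, against 8.20% of all genes. The median LIM-homeodomain gene of this list had 3 RNAP2 peaks, 1.5 Med12 peaks and 0.5 distal sites with both in its neighbourhood. The 5 genes described here had medians of 4, 4 and 2. The 4 distal limb mesenchyme markers had higher medians of 24, 13 and 3.5, and Tbx5 had 24, 5 and 2. High numbers are thus not particular to the 5 genes.

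Of 10 genes for LIM cofactors and LIM-only proteins, 7 had RNAP2 at the gene start and 3 had Med12 there, against 40.0% and 8.20% of all genes. Ldb1, the adaptor that LIM-homeodomain proteins need to act, had an RNAP2 score of 258 and no Med12 peak at the start. Its binding partners Ssbp2 and Ssbp3 had Med12 scores of 295 and 262 and RNAP2 scores of 128 and 161 at the gene start. Lmo4, a LIM-only protein that competes for Ldb1, had 1981 for RNAP2 and 61.4 for Med12. Of 12 genes for subunits of NuRD, 11 had RNAP2 at the start, all but Mta1, against 40.0% of all genes. Med12 was at the start of 1 of the 12, a share close to the 8.20% of all genes. That was Rbbp4, a histone-binding subunit, with scores of 2493 for RNAP2 and 54.4 for Med12. Hdac2, a deacetylase of the complex, had an RNAP2 score of 986, and Chd4, its remodelling ATPase, had 98.7.

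Genes with the most similar pattern were sought over 5 measures (the peaks of each list and the distal sites with both in the neighbourhood, and the highest score of each list at the gene start), as distances in SD units of log2(value + 1) over all genes. The nearest to Sall1 were Wdr75 and Ate1, at 0.65 and 0.74, where the median gene was at 5.55. For Lhx9 they were Rpe and Stau2, at 0.34 and 0.37, with a median of 4.19. For Sall3 they were Spats2l and Mtpn, both at 0.01, with a median of 2.79. The peaks at internal starts of Lhx2 and Lhx9, with RNAP2 scores of 1144 and 1904, do not enter these measures. Without a peak at the gene start the measures leave little to tell genes apart. Sall4 had 27 genes at a distance of 0, among them 1700007G11Rik and 4930563D23Rik, and Lhx2 had 6, among them Bcan and Gpatch4. The likeness rests on 1 library for each protein.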

How the data were processed

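RNAP2, Med12 and input libraries from E12.5 distal forelimb were described by the submitters as 1 sample each, and the input, which has no peak list, was not used here. Reads had been shortened by their first base by the authors and aligned to mm9 (Bowtie). After removal of redundant reads, MACS 1.4.1 was run on each library with settings that do not name the input as control. The deposited score is the MACS value, −log10 of the p-value multiplied by 10, which is not corrected for depth. Depth per peak is unknown. Bed starts were converted to positions counted from 1.

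Genes and starts were those of GENCODE vM1 on NCBIM37, which is mm9, and every peak lay within its chromosomes. Peaks were joined to genes and to each other (at least 1 bp shared) with Python 3.11.15. The overlaps of the whole lists, 4435 RNAP2 and 4539 Med12 peaks, were the same with bedtools 2.31.1, and the code was tested on simulated lists. Wilson intervals (95%) came from scipy 1.17.1 and figures from matplotlib 3.10.9. No test compares libraries. The 5 genes, the lists of relatives and the alternatives were chosen with earlier results of these data known. Named sites were all peaks at a start, up to 6 distal sites with both per gene by Med12 score, and the highest peak of each list without the other. The most similar genes were the nearest 2 per gene, with starts over 1 Mb away. Sequences were read from NCBIM37, 300 bases for the distal site with the highest Med12 score of each gene outside chromosome 18. The sequence of 1 further site is not reported here.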

Additional observations from a re-analysis of the deposited data

How the results depend on the processing

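No paired analysis was possible because only 1 library exists for either antibody. A total of 30 counts were recomputed, each under those of 10 alternatives that bear on it. Requiring a score of at least 50 left 12 Med12 peaks in the 5 neighbourhoods. Requiring a score of at least 100 left 5 Med12 peaks and 3 distal sites with both proteins, 1 near Sall1 and 2 near Lhx9, and 0 starts with Med12. With 100 kb around the start there were 21 RNAP2 peaks, 7 Med12 peaks and 5 distal sites with both (none near Sall4 or Lhx2), and with 500 kb there were 75, 42 and 20. Distal sites over 5 kb from any start were 6. A Med12 peak within 5 kb of the start was found for 2 genes. The score and window settings keep fewer or more peaks, whereas the 5 kb settings keep the same peaks and only class them anew. Of the totals over the 5 genes, 12 stayed within 1.5 times the count given and 12 did not. For the values per gene, 85 stayed within that range and 35 did not, and the 85 include counts of 0 that stayed at 0. There were 10 distal sites with both when the overlap had to reach 50% of the smaller peak, when peaks up to 500 bp apart were joined, and when protein-coding starts alone were used. RNAP2 at the start was found for 3 genes with either score minimum and within 5 kb, and for 4 with any transcript start. Apart from any transcript start, the shares over all genes were not recomputed under the alternatives. The lists hold no counts, so weak binding at Sall4 or at the first start of Lhx2 could not be examined.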
